A study of Mus musculus with 5 samples.

Results

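The keratin genes were all genes whose symbol in the count files was Krt followed by a number and at most 1 lower-case letter. This rule found 54 of the 55385 genes counted. Of these, 27 were type I keratin genes, 26 were type II keratin genes and 1, Krt222, was a keratin-like gene. The family was chosen by the read counts of 1 member, the type II keratin Krt75, which had 0 reads in the control and more than 200 in each library from 4 h on. Krt75 is therefore described below without a test. For the other keratins, the question was whether any of them followed Krt75.

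Total RNA of hippocampi from 3-month-old male C57/bl6 mice was sequenced in 5 libraries. The control was 1 library of untreated tissue, which had received no injection, so an effect of the injection and an effect of kainic acid cannot be told apart. The other groups had received an intraperitoneal injection of 20 mg/kg kainic acid, a glutamate receptor agonist that provokes seizures, and were taken 1 h (1 library), 4 h (2 libraries) or 8 h (1 library) after the seizures began. The libraries of the 4 h pair are called mouse 1 and mouse 2, although no source used here says how many animals went into a library. Because only 4 h was repeated, every p-value rests on the spread between mouse 1 and mouse 2, which may be technical, and assumes that the unrepeated libraries vary to the same degree.

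Keratins are the intermediate filament proteins of epithelial cells. A type I keratin pairs with a type II keratin, and the pairs assemble into filaments that are anchored at desmosomes and hemidesmosomes. Krt8 and Krt18 form the filaments of simple epithelia, Krt5 and Krt14 those of basal epidermal cells, and Krt1, Krt2 and Krt10 those of the upper epidermis, whereas Krt6a, Krt16 and Krt17 are known from hair follicles and wounded skin. Krt75 is the type II keratin of the companion layer of the hair follicle. Neurons build their intermediate filaments from neurofilament proteins and α-internexin, and astrocytes from Gfap and vimentin.

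Type II genes lie together in the mouse genome, and all 26 were on chromosome 15. Of the type I genes, 26 were on chromosome 11 and 1, Krt18, was on chromosome 15 beside Krt8. Krt75 (ENSMUSG00000022986.5) was at chr15:101563345-101573904 on the minus strand (GRCm38, GENCODE M21), with 9 exons that sum to 3266 bases. No stretch of the length of a sequencing read was shared with another keratin gene, and 3.95% of its exon length lay opposite the microRNA gene Gm44460, which had 0 reads in 4 libraries and 1 read at 8 h.

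To show the promoter of Krt75 beside those of other keratins with reads, the stretch around an AT-rich element upstream of the start site is given for 5 genes. Each is the promoter of the annotated first exon, and counts per gene do not show where the Krt75 RNA of the seizure libraries began. For an RNA that began at a later exon, the promoter shown would not be its own. The element, TATAAA or CATAAA on the strand of the gene, is in capitals. Only genes with such a match could be shown. For Krt2, Krt18, Krt77 and Krt222, each with more reads than Krt84, no match was found or no RefSeq promoter was available. Krt8 and Krt23 also had more reads than Krt84 and are not shown, although they had matches 1 and 32 bases before the start. The sequences are from RefSeq (GRCm38.p6), run 5′ to 3′ on the minus strand, and the element began 33 bases before the start for Krt75, 34 for Krt84, 30 for Krt73, 26 for Krt10 and 29 for Krt12. The windows are chr15:101573921-101573948, chr15:101532838-101532865, chr15:101802374-101802401, chr11:99389374-99389401 and chr11:99422272-99422299.
Krt75: tgggggaggccCATAAAagtctaaggac
Krt84: gtccacacacaCATAAAagaggtgagag
Krt73: ctcttgagctcTATAAAggggaagacca
Krt10: ccctctcagtaTATAAAggctcggcact
Krt12: acctcccagccTATAAAggcaggacccc

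RefSeq promoters, from 250 bases before to 50 bases after a start, were found for 36 of the keratin genes (37 promoters). TATAAA on the strand of the gene was present in 17 of the 37 keratin promoters (45.9%), and in 8.32% of all 32851 promoters. CATAAA, which was searched for after the Krt75 promoter had been seen, was present in 9 of 37 (24.3%) and in 6.53% of all promoters. TGANTCA, the letters of an AP-1 site, was searched on both strands and was present in 2 of 37 (5.41%), both of them promoters of Krt13, and in 7.81% of all promoters. TGACGTCA, the letters of a cAMP response element, was present on either strand in 0 of 37 and in 1.79% of all promoters. The Krt75 window of 250 and 50 bases held CATAAA and none of the other motifs. These matches describe letters in a window and are no evidence that a factor binds or does not bind.

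Reads on genes numbered between 16612225 and 19109204 in a library, and reads on no gene made up between 24.7% and 33.1%, with the highest share in mouse 1 at 4 h. All 12 hippocampal neuron markers had reads in every library, with a summed level between 2755 and 3026 CPM (each library's counts scaled to a common depth with TMM factors). Most of this sum came from Camk2a and Slc17a7, and it does not show that each marker was steady. At 4 h the edgeR quasi-likelihood test called 0 of the 12 (0.00506% of all genes), with 6 at an unadjusted p under 0.05 (11.6%). DESeq2 called 3 (1.18%), of which C1ql2 and Neurod6 were lower than in the control and Prox1 higher. In mouse 1, however, the 10 choroid plexus markers together had 582 reads, against between 30528 and 83067 in the other libraries. Fos, an immediate early gene, had 215 reads without seizures and 17563 at 1 h, then 8743 in mouse 1, 1331 in mouse 2 and 302 in the 8 h library. In the 4 h pair, 2387 of 19768 genes tested (12.1%) and 5 of 16 keratins tested were more than 2-fold apart.

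Most keratin genes had few or no reads in the hippocampus. Over the 5 libraries together, 17 keratins had 0 reads, 15 had 1 to 9, 10 had 10 to 49, and 12 had 50 or more. A total of 16 keratins had reads in every library, and 21 keratins had at least 1 read in the control, against 27 to 29 in the seizure libraries. Of the type I genes, 11 had 0 reads and 5 had 50 or more, and of the type II genes, 6 had 0 reads and 6 had 50 or more. A gene with 0 reads is not shown to be silent: 3 reads, the approximate one-sided 95% limit for a count of 0, correspond to between 0.151 and 0.178 CPM in these libraries. The exact intervals below are two-sided and reach 3.69 reads for a count of 0. These limits and intervals cover counting error only.

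Krt75 went from 0 reads to a level among the highest of the family. The control had 0 Krt75 reads, the 1 h library 5, mouse 1 and mouse 2 of the 4 h group 297 and 243, and the 8 h library 276. In normalized units these were 0, 0.284, 17.6, 12.9 and 15.7 CPM, and the mean at 4 h was 15.2 ± 3.39 CPM (SD, n = 2). The 3 late libraries were all far above the control and 1 h, and 8 h lay between the mice of the 4 h pair. Set against a floor of 3 control reads, the Krt75 level was at least 117-fold higher (mouse 1), at least 85.3-fold higher (mouse 2) and, at 8 h, at least 104-fold higher. With the counting error of both counts included, the lower bounds of the exact 95% intervals were 94.6, 68.8 and 84.4. In these bulk libraries, more cells that express a gene and more RNA per cell cannot be told apart.

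The reads of Krt75 formed a sizeable share of all keratin reads from 4 h on. This share was 0% of 1547 keratin reads in the control (exact binomial 95% interval up to 0.238%) and 0.417% of 1198 at 1 h (0.136% to 0.971%). It was 24.9% of 1194 reads in mouse 1 (22.4% to 27.4%), 15.3% of 1591 in mouse 2 (13.5% to 17.1%) and 17.6% of 1564 at 8 h (15.8% to 19.6%). Within the 4 h pair, Krt75 was 1.37 times as high in mouse 1 as in mouse 2 (exact 95% interval 1.15 to 1.63), and the keratins without Krt75 and Krt222 summed to 414 reads in mouse 1 and to 796 in mouse 2. For the control this sum was 734 reads, for 1 h 524 and for 8 h 831. As a ratio between libraries, these keratins together thus had no difference of the size seen for Krt75.

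**Figure D1:**
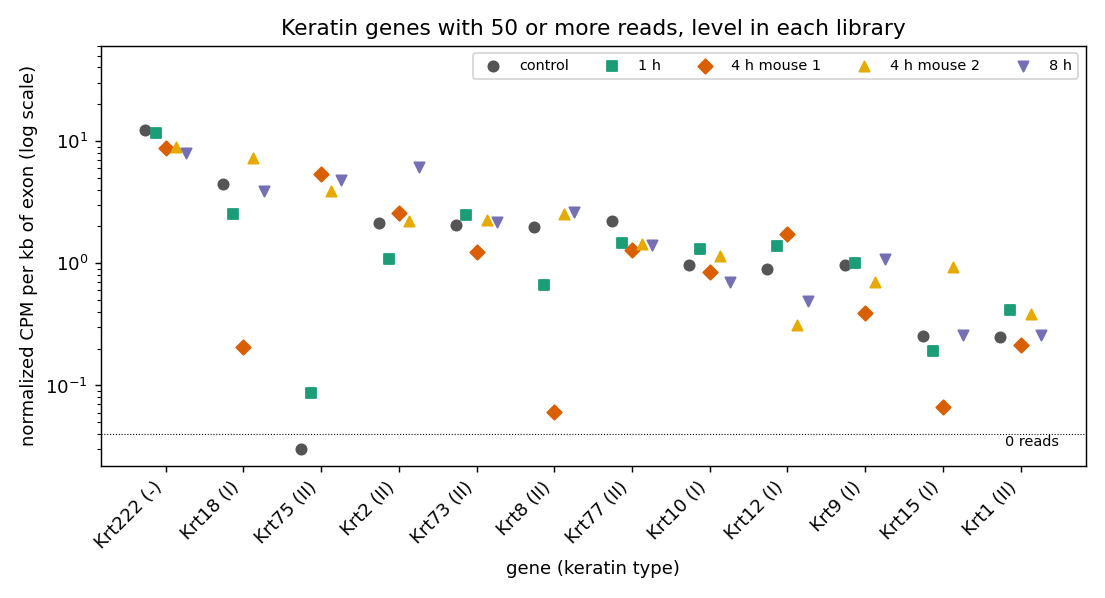
Normalized CPM per kilobase of exon (log scale) for the 12 keratin genes with 50 or more reads, each point 1 library, with the keratin type in brackets and a library with 0 reads drawn below the dotted line. Krt75 moves from below the line in the control to between 3.93 and 5.40 at 4 and 8 h, while mouse 1 is low for Krt18, Krt8 and Krt15.

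Per kilobase of exon, Krt222 had the highest mean level of the family over the 5 libraries (9.89 normalized CPM per kb), followed by Krt18 (3.68), Krt75 (2.85), Krt2 (2.84) and Krt73 (2.04). The ranges of these genes over libraries overlapped for Krt18, Krt75, Krt2 and Krt73, so their order does not exceed the spread. Krt222 ranged from 7.92 to 12.4, Krt18 from 0.207 to 7.32, Krt2 from 1.09 to 6.16 and Krt73 from 1.23 to 2.49. At 4 and 8 h Krt75 was at 5.40, 3.93 and 4.82 normalized CPM per kb. These values divide by the whole annotated exon length, and would be higher if the RNA held only some of the 9 exons, which counts per gene cannot show. Krt8 (1.57), Krt77 (1.57), Krt10 (0.998), Krt12 (0.963), Krt9 (0.832), Krt15 (0.340) and Krt1 (0.304) had lower means.

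The other keratins were compared with the control at each time, and none of them passed the test. A low-count filter left 15 of them for testing. In the edgeR quasi-likelihood test with Benjamini-Hochberg adjustment over all genes, 0 of 15 were called at 1 h (0% of the 19768 genes tested), 0 at 4 h (0.00506% of all genes, which was 1 gene) and 0 at 8 h (0%). DESeq2, which called 0.248%, 1.18% and 0.162% of all genes, also called 0 of these keratins at each time. It gave no adjusted p for some of them and so did not test them. Among those with 50 or more reads these were Krt1 and Krt15 at 1 h, Krt1, Krt12 and Krt15 at 4 h, and Krt15 at 8 h. Limma-voom called 0 of these keratins too, but it called 0% of all genes at each time. With an unadjusted p under 0.05, 1 keratin was found at 1 h (Krt2; 2.42% of all genes), 1 at 4 h (Krt90; 11.6%) and 3 at 8 h (Krt2, Krt222 and Krt90; 4.51%). A keratin that missed the threshold is not shown to be unchanged. Activity-regulated genes with large differences missed it too, such as Fos at 1 h (log2 fold change 6.53) and Inhba at 4 h (6.73). Missing it thus does not set the other keratins apart from genes that rose.

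By size alone, Krt90 was more than 2-fold higher than the control at 1 h, with 2 reads against 1 (ratio 2.26, exact 95% interval 0.118 to 134), where 5.41% of all genes were higher by as much. At the same time, Krt5 (ratio 0.377, exact 95% interval 0.0657 to 1.51) and Krt8 (0.338, 0.203 to 0.545) were more than 2-fold lower, as were 3.8% of all genes. At 4 h, only Krt90 was more than 2-fold higher in both mice (4.96% of all genes) and 0 keratins were more than 2-fold lower in both (1.51%). At 8 h, Krt2, Krt87 and Krt90 were more than 2-fold higher (6.79%) and 0 were lower (3.37%). Krt87 and Krt90 had 10 or more reads only in late libraries, where they were high, and entered the comparison through them. At 1, 4 and 8 h the 15 keratins had a median log2 fold change of 0.06, 0.04 and 0.08, and all genes tested had one of -0.01, 0.01 and 0.01. The 3 comparisons share the control library.

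**Figure D2:**
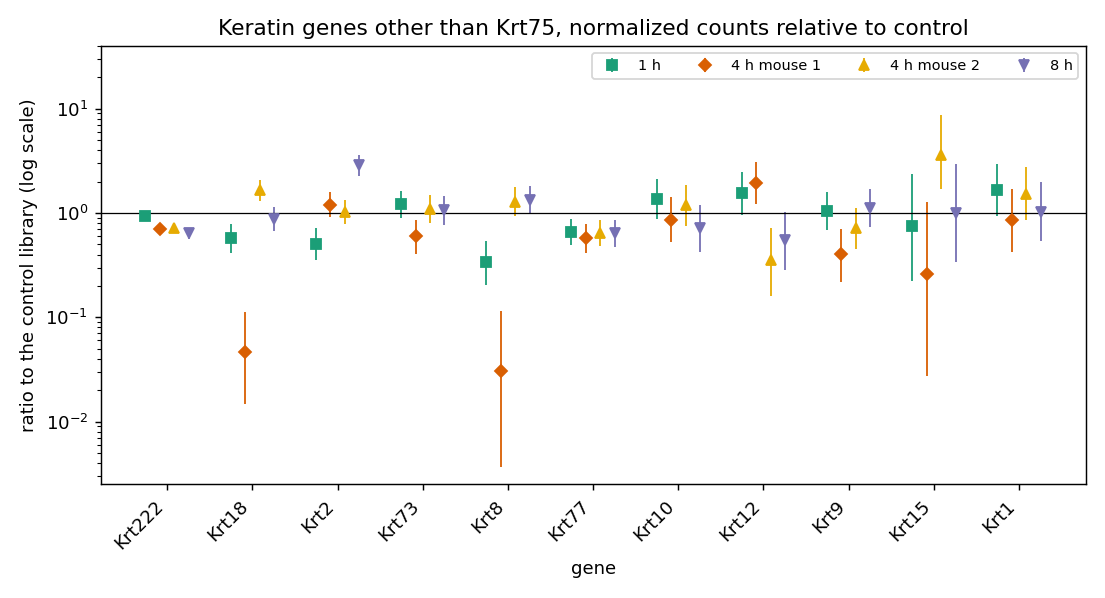
Ratio of normalized counts to the control library (log scale) for the 11 keratins other than Krt75 with 50 or more reads, with 1 point for each library and bars for exact 95% counting intervals. Krt2 at 8 h is the highest ratio with a short interval (2.86), and mouse 1 lies far below the other libraries for Krt18 and Krt8.

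Among the type II keratins, the neighbour of Krt75, Krt90, was also higher from 4 h on. Krt90 (ENSMUSG00000048699.4, chr15:101552356-101562950, minus strand) is the next gene downstream, and 394 bases separate the end of Krt75 from its beginning. The control had 1 read of Krt90, the 1 h library 2, the 4 h pair 12 (mouse 1) and 15 (mouse 2), and the 8 h library 14. Like Krt75 it was low in the control and at 1 h and higher in all 3 late libraries, but at a far lower level. Relative to the control, the ratio was 14.2 in mouse 1 (exact 95% interval 2.10 to 606), 15.8 in mouse 2 (2.43 to 665) and 15.9 at 8 h (2.42 to 672). On the log2 scale the difference at 4 h was 3.74 (SE 1.07), which did not pass the edgeR quasi-likelihood test (adjusted p = 0.350). When no filter on low counts was applied, Krt90 was the only keratin of 36 tested to be called at 4 h, a share of keratins no higher than the 3.97% of all genes that this fit called. The same fit called 0 keratins at 1 h (0.871% of all genes) and 0 at 8 h (0.852%). Krt90 passed the usual filter only through the late libraries, where it was high. For every 100 reads of Krt75 there were 4.04 reads of Krt90 in mouse 1, 6.17 in mouse 2 and 5.07 at 8 h. The value of 40 at 1 h comes from 2 reads of Krt90 and 5 of Krt75, too few to compare with the late libraries. Because the counts join all reads of a gene, they do not show where within Krt90 its reads lie.

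Krt82 and Krt84 follow Krt90 in the direction of transcription, and both code for hair keratins. Krt84 had 0 reads in the control and at 1 h, and then 8 (mouse 1), 3 (mouse 2) and 2 reads (8 h). Krt82 (named here after its values were seen, as are Krt14, Krt76 and Krt83) had 0, 0, 6, 0 and 1 reads in the same order. On the other side of Krt75, Krt6a had 0, 0, 5, 4 and 7 reads and Krt6b had 0 in each library. Krt6a shared 22.1% of its read-length stretches with Krt5 and Krt6b, so its reads are uncertain. Including Krt6a and Krt84, 4 keratins had 0 reads in the control and at 1 h but reads in all 3 late libraries, the others being Krt14 and Krt83. Krt83 had 1 read in each late library and Krt14 had 2, 1 and 1. Of the keratins with at least 1 read, these are 4 of 37 (10.8%), and of all 32732 genes with at least 1 read, most of which had more reads, 0.758% had this pattern. None of the 4 had enough reads to be tested with the filter.

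**Figure D3:**
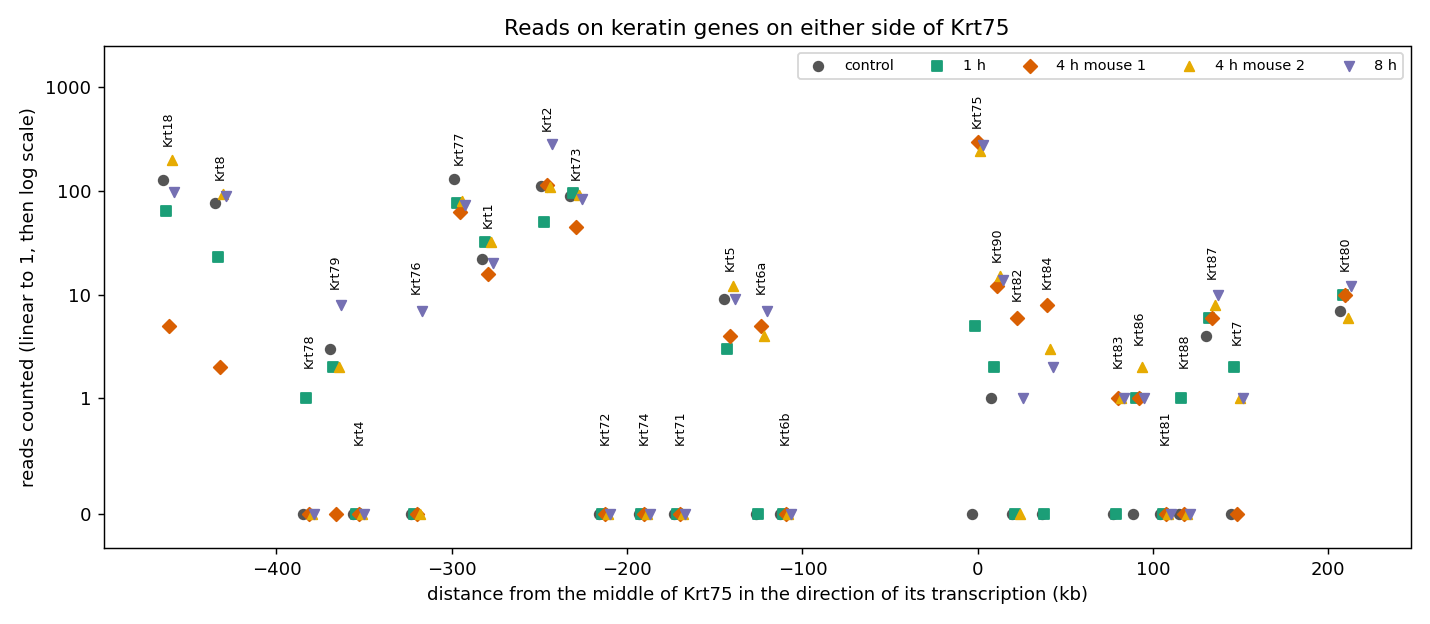
Reads counted on each keratin gene of the chromosome 15 cluster against the distance of its middle from the middle of Krt75 in kilobases (downstream of Krt75 to the right), with 1 point for each library and points of a gene set slightly apart. The points of Krt75 at 4 and 8 h reach 243 to 297 reads, and Krt90 beside it reaches at most 15. Krt81 downstream, and Krt6b, Krt71, Krt74, Krt72 and Krt4 on the other side, have 0 reads in every library.

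Farther along the cluster, Krt2, Krt73, Krt1 and Krt77 had reads in every library. Krt2 had 112 control reads, 50 at 1 h, 114 and 109 in the 4 h pair and 282 at 8 h. Its level at 8 h was thus above all other libraries and its level at 1 h below all of them, while the 4 h pair was close to the control. The ratio to the control was 0.506 at 1 h (exact 95% interval 0.355 to 0.712), 1.20 and 1.02 at 4 h, and 2.86 at 8 h (2.29 to 3.59). At 8 h the log2 fold change was 1.51 (SE 0.37, adjusted p = 0.906, edgeR quasi-likelihood test), and at 1 h it was -0.98 (SE 0.38, adjusted p = 1). Neither passed. Between 8 h and 1 h the log2 difference was 2.497 (unadjusted p = 0.00102, adjusted p = 0.506, edgeR quasi-likelihood test). This comparison called 0% of all genes.

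Krt77, a suprabasal keratin of skin and sweat gland ducts, was lower than the control in all seizure libraries. It had 130 control reads, then 76 at 1 h, 63 and 80 in the 4 h pair and 73 at 8 h, with ratios between 0.573 and 0.662. The intervals of all 4 ratios stayed below 1, the highest upper bound being 0.885. However, with the spread between the mice taken into account its log2 fold changes of -0.59, -0.71 and -0.65 did not pass (SE 0.42, 0.36 and 0.42; edgeR quasi-likelihood adjusted p = 1, 0.507 and 1.00).

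Krt73, a keratin of the inner root sheath of hair, had 89 reads without seizures and 95 at 1 h, 45 and 92 in mouse 1 and mouse 2, and 83 at 8 h. Only mouse 1 stood apart, with 0.549 times the level of mouse 2 (exact 95% interval 0.376 to 0.793). Krt1 had 22, 32, 16, 32 and 20 reads in the same order, and all of its ratios had intervals that included 1. The 4 remaining type II genes in the range of 10 to 49 reads with counts in every library were Krt80 (6 to 12 reads), Krt5 (3 to 12), Krt87 (4 to 10) and Krt90 above. Krt87 had 4 control reads and 10 reads at 8 h, but its ratio at 8 h of 2.84 had an interval from 0.819 to 12.4. Krt79, which was found in 4 libraries, had 0 to 8 reads, and Krt76 had 7 reads at 8 h and 0 elsewhere.

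Krt8 and Krt18, the pair of simple epithelia, were both lowest in mouse 1, where Krt75 was high. Both had reads in the control, where Krt75 had 0. The control had 127 reads of Krt18 and the 1 h library 64, mouse 1 had 5, mouse 2 had 199, and 98 were counted at 8 h. Krt8 had 77, 23, 2, 94 and 90 reads in the same order. The spread within the 4 h pair was larger than any difference between time points: mouse 1 had 0.0282 times the Krt18 level of mouse 2 (exact 95% interval 0.00906 to 0.0670) and 0.0239 times its Krt8 level (0.00285 to 0.0887). Relative to the control, Krt18 was 0.0465 in mouse 1 but 1.65 in mouse 2, and Krt8 was 0.0307 in mouse 1 but 1.28 in mouse 2. The log2 fold changes at 4 h, -0.23 for Krt18 (SE 1.46) and -0.59 for Krt8 (SE 1.41), therefore describe neither mouse. With mouse 2 alone, Krt18 was above the control (exact 95% interval of the ratio 1.31 to 2.08), while the interval of Krt8 included 1 (0.941 to 1.76).

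The choroid plexus is an epithelium of the ventricles that borders the hippocampus, and its markers were examined beside Krt8 and Krt18. The 10 markers, of which none was at 0 in any library, summed to 81415 control reads, 30528 reads at 1 h, 582 for mouse 1, 83067 for mouse 2 and 55737 at 8 h. Ttr, which codes for transthyretin and is the most abundant of them, had 74570, 27643, 275, 75088 and 50562 reads. Mouse 1 was lowest and 1 h second lowest in the markers, in Krt18 and in Krt8. For every 1000 marker reads there were 1.56, 2.10, 8.59, 2.40 and 1.76 reads of Krt18 and 0.946, 0.753, 3.44, 1.13 and 1.61 reads of Krt8, so the ratios differed far less between libraries than the genes did, and were highest in mouse 1. The part of choroid plexus tissue in the Krt8 and Krt18 counts was not tested. Krt75 was high in both mice of the 4 h pair, whose marker sums were 582 and 83067. The 8 ependymal markers summed to between 14.2 and 47.3 normalized CPM, with mouse 1 lowest and mouse 2 highest, and the 10 leptomeningeal markers to between 64.7 and 102 normalized CPM. Krt8 shared 12.1% of its read-length stretches with the pseudogene Krt8-ps.

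**Figure D4:**
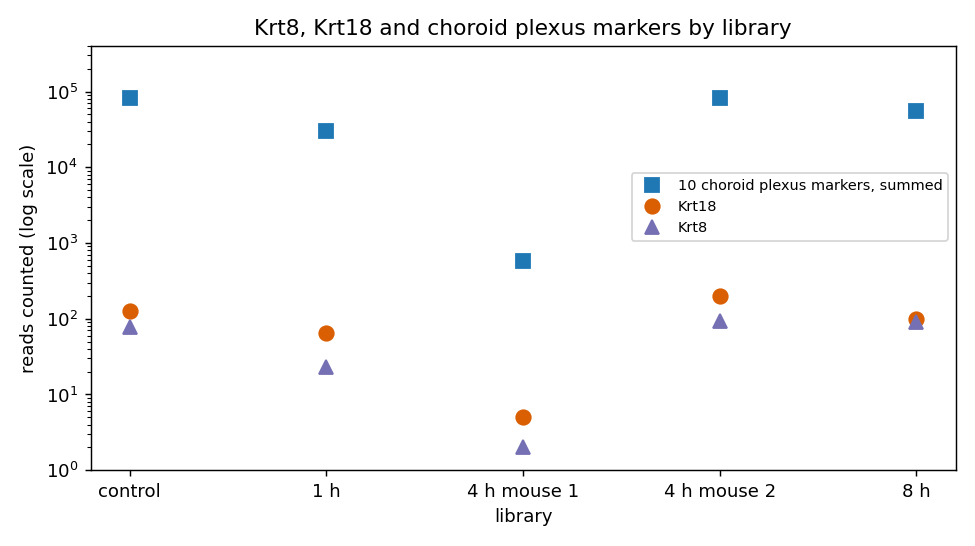
Reads of Krt18, of Krt8 and of 10 summed choroid plexus markers in each library (log scale). All 3 series have their lowest point in mouse 1 at 4 h, with 5, 2 and 582 reads.

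The other type I keratins with 10 or more reads had reads in the control and did not share the course of Krt75. Krt15, a keratin of basal cells, had 9, 6, 2, 31 and 8 reads, and mouse 1 had 0.0725 times the level of mouse 2 (exact 95% interval 0.00840 to 0.285). Krt9, known from the skin of palms and soles, had 50, 46, 17, 34 and 49 reads, and Krt10 had 41, 49, 30, 46 and 26. For both genes the libraries of the 4 h pair lay on the low side or on both sides of the control, and the log2 fold change farthest from 0 was -0.83, for Krt9 at 4 h. Krt12, the type I keratin of the cornea, had 33, 45, 54, 11 and 16 reads, and here mouse 1 had 5.51 times the level of mouse 2 (2.85 to 11.7). In Krt12, 54.4% of the exon length lay opposite the gene A830036E02Rik, which had 445, 512, 432, 225 and 271 reads, and as the strand setting of the counting is not known, reads of the pair may not be separated. The remaining type I genes with 10 to 49 reads were Krt23 (0 to 10 reads), Krt19 (1 to 5) and Krt28 (0 to 4). Krt16 had 0 reads in all libraries, and so had Krt13 and the hair keratins Krt31 to Krt36 apart from 1 read of Krt33b in mouse 2.

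Krt222, the keratin-like gene, was the most abundant member and was lower in the late libraries than in the control. Its 813 control reads compare with 669 at 1 h, 483 and 552 in the 4 h pair and 457 at 8 h, which is 40.8, 38.1, 28.7, 29.2 and 26.1 normalized CPM. The mice of the 4 h pair differed by little (28.9 ± 0.358 CPM, SD, n = 2), and all 3 late libraries were below both the control and 1 h. The ratio to the control was 0.932 at 1 h (exact 95% interval 0.840 to 1.03), 0.702 in mouse 1 (0.626 to 0.787), 0.715 in mouse 2 (0.640 to 0.797) and 0.638 at 8 h (0.568 to 0.717). The log2 fold change was -0.10 at 1 h (SE 0.23), -0.50 at 4 h (SE 0.20, adjusted p = 0.432) and -0.65 at 8 h (SE 0.24, adjusted p = 1.00), and none passed the edgeR quasi-likelihood test.

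Markers of skin and hair were examined beside the keratins. Of 25 such markers (the list is Flg, Lor, Ivl, Trp63, Hoxc13, Krtdap, hair keratin-associated proteins and the like), between 13 and 16 had 0 reads in each library, and their summed level was 9.90 normalized CPM without seizures, 11.6 at 1 h, 15.6 and 12.7 in the 4 h pair and 12.6 at 8 h. Only 8 had enough reads to be tested. Of these, 0 passed the edgeR quasi-likelihood test at 1, 4 and 8 h (0%, 0.00506% and 0% of all genes) or DESeq2 (0.248%, 1.18% and 0.162%). With an unadjusted p under 0.05 in the edgeR quasi-likelihood test there were 0, 1 and 1 (2.42%, 11.6% and 4.51% of all genes). The largest difference among the 8 at 4 h and 8 h was in Klk7, a protease of the cornified epidermis, which had 6 control reads, 8 at 1 h, 18 and 36 in mouse 1 and mouse 2, and 33 at 8 h. Klk7 had 10 or more reads only in the late libraries and entered the comparison through them. Tchh, the trichohyalin of the hair root sheath, had 75, 106, 130, 97 and 79 reads. In the opposite direction, Trp63, a transcription factor of basal epidermal cells (named after its values were seen), had 31 control reads and 16, 14, 15 and 9 in the seizure libraries. At 8 h, 2 of the 8 were more than 2-fold higher (6.79% of all genes) and 2 more than 2-fold lower (3.37%). The part of skin or hair RNA in the keratin counts was not tested.

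The genes that anchor keratin filaments were not called in the edgeR quasi-likelihood test with the low-count filter. Of 24 genes of desmosomes, their plaques and hemidesmosomes, 18 were tested. At 1, 4 and 8 h, 0 passed the edgeR quasi-likelihood test (0%, 0.00506% and 0% of all genes) or DESeq2 (0.248%, 1.18% and 0.162%). An unadjusted p under 0.05 in the edgeR quasi-likelihood test was found for 0, 2 and 2 genes (2.42%, 11.6% and 4.51% of all genes). The 18 genes had a median log2 fold change of -0.09, -0.07 and 0.03. Dsp, which codes for desmoplakin, the protein that links keratin filaments to the desmosome, and which in the hippocampus marks granule cells of the dentate gyrus, had 1437 reads in the control and 1162 at 1 h. It then had 73 reads in mouse 1, 257 in mouse 2 and 1201 at 8 h, so that both mice of the 4 h pair lay far below all other libraries, and 8 h was close to the control. The difference of Dsp at 4 h was -3.0 on the log2 scale (SE 0.57), with an adjusted p = 0.259 in the edgeR quasi-likelihood test. Dsc3, a desmosomal cadherin, had 160, 107, 86, 88 and 15 reads and was lowest at 8 h (log2 fold change -3.22, SE 0.47, adjusted p = 0.756, edgeR quasi-likelihood test). Dsg2, Ppl and Perp were each lowest in mouse 1, with 24, 40 and 36 reads against 90, 84 and 145 in mouse 2. Some desmosomal cadherin genes with few reads (named here after their values were seen) were instead lowest in the control. Dsc1 had 0 control reads, 3 at 1 h, 24 and 9 in the 4 h pair and 6 at 8 h, and Dsg1c had 1, 4, 6, 6 and 10 in the same order. Neither was called. Dsc1 reached 10 reads only in mouse 1 and Dsg1c only at 8 h, so they entered the comparison through libraries where they were high. Dsc2, another cadherin gene with few reads, had 18, 7, 4, 11 and 15 reads and was lowest in mouse 1. When no filter was applied, Dsc1 and Dsp were called at 4 h (3.97% of all genes) and Dsc3 at 8 h (0.852%), and with library size alone Dsp was called at 4 h (1.2%).

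Of the intermediate filament genes outside the keratin family, all 16 were tested. In the edgeR quasi-likelihood test 0 were called at 1, 4 and 8 h (0%, 0.00506% and 0% of all genes). With an unadjusted p under 0.05 in that test there were 1, 7 and 3 (2.42%, 11.6% and 4.51% of all genes). DESeq2 called 0 at 1 h (0.248% of all genes), 3 at 4 h (Gfap, Ina and Vim; 1.18%) and 1 at 8 h (Gfap; 0.162%). Their median log2 fold change was 0.27, 0.61 and 0.11. Gfap had 4400 control reads, 4776 at 1 h, 10034 and 9647 in the 4 h pair and 10297 at 8 h. Vim, which codes for vimentin, had 491, 551, 1260, 1032 and 1052 reads. In both of these glial filament genes the 3 late libraries lay above the control and 1 h, as for Krt75, but from a high level in the control. The log2 fold change at 4 h was 1.32 for Gfap (SE 0.19, adjusted p = 0.242) and 1.39 for Vim (SE 0.27, adjusted p = 0.259) in the edgeR quasi-likelihood test. Ina, the gene of α-internexin, had 1587, 3042, 5328, 3204 and 1742 reads, and was higher at 1 and 4 h than at 8 h. Lmna, with 586, 739, 893, 1003 and 588 reads, and the neurofilament gene Nefm, with 1892, 1978, 2795, 2782 and 1464, were highest in the 4 h pair.

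**Figure D5:**
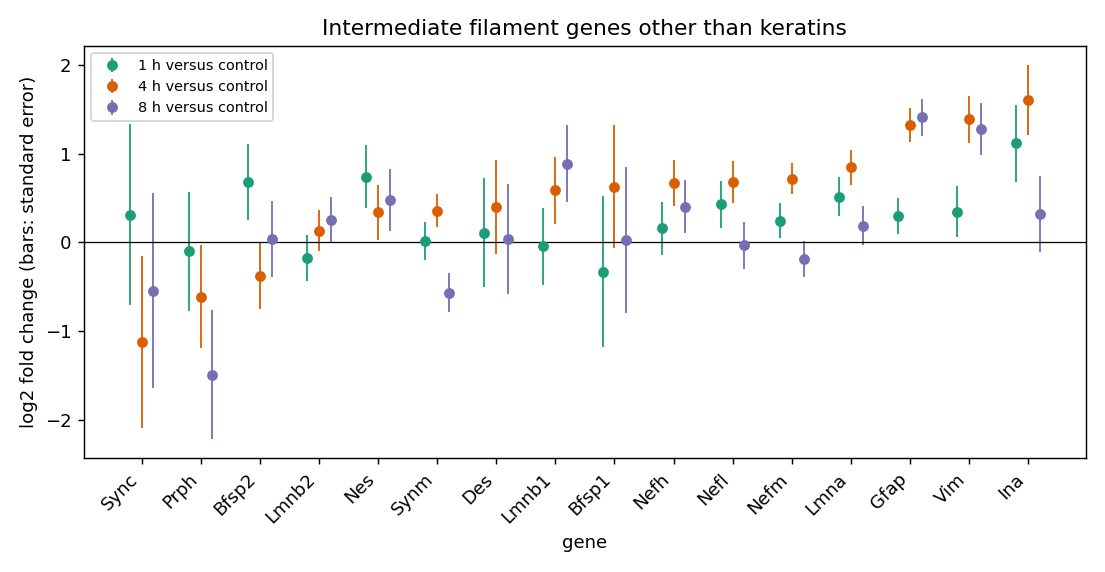
Log2 fold change against the control at 1, 4 and 8 h for 16 intermediate filament genes that are not keratins, ordered by the value at 4 h, with bars for the standard error. Ina, Vim and Gfap have the highest values at 4 h (1.61, 1.39 and 1.32), and Ina alone of these 3 is close to the control at 8 h (0.32).

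As a description of the course of Krt75, the genes whose log2(normalized CPM + 0.5) had the highest Pearson correlation with it over the 5 libraries were Igf1r (0.999), Pdlim4 (0.999), Ensa (0.998), Arhgap10 (0.998) and Pde2a (0.995), among 12455 genes with 100 or more reads in a library. All of them were expressed in the control. Of the keratins, only 4 had enough reads to be compared, and Krt90, Krt6a and Krt84 were not among them. Pdlim4, a LIM domain protein of the actin cytoskeleton, had 136, 136, 291, 319 and 314 reads, and Igf1r, the receptor of insulin-like growth factor 1, had 1568, 1407, 1578, 1737 and 1635. As in Krt75, the 3 late libraries were above the control and 1 h in these genes, but their differences were far smaller. With only 5 libraries the measure separates genes poorly, as 168 genes had a Spearman correlation of 1 with Krt75, and with a pseudocount of 0.1 only 1 of the 5 genes stayed among the closest.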

How the data were processed

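The authors prepared stranded total RNA libraries of hippocampus, and the submitters' processing notes name STAR 2.5.1b, HTSeq and GRCm38.p4. They deposited whole-number counts of reads for each gene without normalization. Annotation release and strand setting of the counting were not given in the sources used here. All 54 keratin identifiers, and 54487 of 55385 identifiers in all, matched GENCODE M21 in the same version. The 5 summary lines (no feature, ambiguous and the like) were left out.

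Counts of all genes were filtered with filterByExpr (19768 genes left), normalized with TMM (factors 0.924 to 1.06) and fitted in 4 groups with the edgeR 4.0.16 quasi-likelihood test in R 4.3.3, with Benjamini-Hochberg adjustment over all genes, a threshold of 0.05 and 1 residual degree of freedom (biological coefficient of variation 0.238). Log2 fold changes and SE come from that fit; the code was tested on simulated data. Alternatives tried were size factors by median of ratios, library sizes without TMM, DESeq2 1.42.0, limma-voom (limma 3.58.1), other filters, a 1.5-fold threshold and each 4 h library left out. Levels per kb use the union of exons. Intervals are exact 95% Poisson or binomial intervals.

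The members, gene lists and tests were chosen with earlier results of these data known. Keratins with 50 or more reads are given in every library and those with 10 to 49 by range. Of each list, members past the test and up to 5 with the largest log2 fold change at 4 h and a mean of 20 or more reads could be named.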

Additional observations from a re-analysis of the deposited data

Results flagged for a closer look

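Krt2 went in opposite directions in the 1 h and the 8 h library. It was below the control at 1 h (50 against 112 reads) and above it at 8 h (282 reads), and the log2 difference of 8 h minus 1 h was 2.497 (unadjusted p = 0.00102, adjusted p = 0.506, edgeR quasi-likelihood test over all genes). Each of these times had 1 library, and the difference did not pass after adjustment.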

How the results depend on the processing

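For the 11 keratins other than Krt75 with 50 or more reads, 189 values were computed under alternative settings, of which 185 kept their direction and their side of the threshold and 0 were newly called. Median-of-ratios size factors and limma-voom called 0% of all genes at each time. The filter of at least 10 reads in every library called at most 0.00609%. Keeping their side of the threshold therefore says little under these settings. A missing adjusted p in DESeq2 was counted as not called. The log2 fold changes that changed sign were all close to 0 or in genes with a wide spread: Krt9 at 1 h (-0.014) and Krt10 at 4 h (-0.082) with library size alone, Krt12 at 4 h with limma-voom (-0.31) and Krt15 at 8 h with no filter (-0.00079). Other values kept their direction but changed in size. With limma-voom at 4 h, the log2 fold change moved from -0.23 to -1.71 for Krt18, from -0.59 to -2.08 for Krt8 and from 0.97 to 0.12 for Krt15. Without a filter, 1 keratin with fewer than 50 reads (Krt90) was called at 4 h. The number of keratins more than 2-fold from the control moved at 1, 4 and 8 h to 12, 8 and 17 of 36 with no filter (24.7%, 14.1% and 26.1% of all genes), to 0, 0 and 1 of 8 with at least 10 reads in every library (3.92%, 3.77% and 4.91%), and to 10, 3 and 7 of 15 with a 1.5-fold threshold (20.1%, 16.4% and 23% of all genes). At 4 h it was 4 without mouse 1 (10.3% of all genes) and 5 without mouse 2 (18.8%), where 1 library alone had to pass. The lists counted next include 8 activity-regulated reference genes (Arc, Bdnf, Cda, Egr1, Fos, Homer1, Inhba and Npas4). With library size alone, both calls at 1 h were from that list (Arc and Fos). At 4 h that setting called its members Arc, Bdnf, Cda, Fos, Homer1 and Inhba, and DESeq2 called Bdnf, Cda and Inhba. Members of the lists called were 2, 13 and 2 with library size alone (0.288%, 1.2% and 0.111% of all genes) and 14, 27 and 6 with no filter (0.871%, 3.97% and 0.852%), and 9 at 4 h (1.18%) and 1 at 8 h (0.162%) with DESeq2, against 0 in the edgeR quasi-likelihood test. The cause of these changes was not tested. With pseudocount 0.1, 1 of the 5 genes most like Krt75 was shared. No paired analysis was possible because only the 4 h group had more than 1 library. Counts of under 10 reads in a library limit what can be said of most keratins.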
